A study of Mus musculus with 60 samples.

Results

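Forkhead box genes code for transcription factors that share a winged-helix DNA-binding domain, the forkhead. The 38 listed family members were located by symbol in the mouse annotation, among 21938 protein-coding genes. The mark read at each of them was H3K27me3, the trimethylation of lysine 27 on histone H3. Chromatin had been profiled by CUT&RUN, in which an antibody guides a nuclease to its target and the cut DNA is sequenced, in the mesenchymal progenitor line C3H 10T1/2, which derives from mouse embryos. The 5 genotypes each carried a lentiviral transgene for the human histone H3.1 gene H3C2 with HA and FLAG tags at the C terminus. H3WT cells expressed the unchanged protein, and H3R2C, H3R8C, H3R17C and H3R26C cells expressed versions with cysteine in place of the named arginine of the N-terminal tail. Every genotype, H3WT included, had the EF1 promoter, the tags and puromycin selection, and all kept their endogenous H3 genes, so the mutant proteins were present beside normal H3. The transduced cells of each genotype were selected as a pool, with no cloning step given in the methods.

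Many forkhead genes are classical targets of Polycomb. Polycomb repressive complex 2 lays down H3K27me3 over the starts of developmental regulators in cells that do not use them, and the mark is generally low at active genes. Several members, among them Foxc1, Foxc2, Foxf1, Foxf2 and Foxd1, are known as regulators of mesenchyme, whereas FOXA proteins act in endoderm, and FOXO and FOXK proteins are widely expressed. RNA was not part of these files, so no statement on expression is made here.

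Each labelled group held 3 replicates. The H3K27me3 lists of replicates 1 and 2 were identical in H3WT, H3R2C, H3R8C and H3R26C, and those of replicates 2 and 3 were identical in H3R17C. Among the anti-HA lists, those of replicates 1 and 2 were identical in all 5 genotypes. Identical lists were counted as 1 library. This left 2 independent H3K27me3 libraries for each of those 4 genotypes and 1 for H3R17C, whose replicate 1 was left out because the name of its list gives another mark than its label. P-values therefore rest on 2 libraries per genotype. The fit pools their spread over the 4 genotypes and moderates it with that of all regions tested. The 9 lists used held 20077 to 24598 peaks that covered 64.2 to 130.4 Mb of the genome, with both extremes of coverage outside H3WT (64.2 Mb in H3R26C replicate 3 and 130.4 Mb in H3R2C replicates 1 and 2). The lists do not hold read depth. The paper's reporting summary states a read total for every labelled replicate. These totals differ between replicates whose lists are identical, so which library such a list holds is not known. None of 10 mesenchymal markers, Col1a1, Vim, Pdgfra and Prrx1 among them, and none of 6 housekeeping genes had an H3K27me3 peak within 1 kb of the start in any of the 9 libraries. The 4 epithelial markers were unmarked as well, so absence of the mark does not tell these cell types apart and the labelled cell type was not checked further. Of 3 neuronal markers, Neurod1 and Neurog2 were marked in H3WT, beside 8.85% of all protein-coding genes.

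Forkhead gene starts are mostly rich in CpG, the dinucleotide that is depleted from most of the genome. The 150 bases before the annotated start of 7 members are shown as examples of the kinds of start described below, 5′ to 3′ on the strand of the gene, with each CpG in capitals. Coordinates and bases are those of the GRCm38 (mm10) assembly, starts are those of GENCODE, and none of the 7 stretches overlapped an annotated exon. Foxa2, Foxq1 and Foxd4 carried H3K27me3 in H3WT cells and lost most or all of it in H3R2C cells. Foxi2 and Foxn4 carried it in every library. Foxc1 and Foxd2 carried it in none.
Foxa2 (chr2:148046970-148047119, minus strand): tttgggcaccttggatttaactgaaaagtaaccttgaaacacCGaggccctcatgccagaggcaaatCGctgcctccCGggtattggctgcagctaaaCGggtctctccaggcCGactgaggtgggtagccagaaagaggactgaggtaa
Foxq1 (chr13:31555984-31556133, plus strand): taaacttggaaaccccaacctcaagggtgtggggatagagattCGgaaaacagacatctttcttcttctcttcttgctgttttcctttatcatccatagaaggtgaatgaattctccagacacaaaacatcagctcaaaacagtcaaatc
Foxd4 (chr19:24901198-24901347, minus strand): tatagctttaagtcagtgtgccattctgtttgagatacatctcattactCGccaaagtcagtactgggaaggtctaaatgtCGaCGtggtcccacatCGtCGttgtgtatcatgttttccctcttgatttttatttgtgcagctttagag
Foxi2 (chr7:135410158-135410307, plus strand): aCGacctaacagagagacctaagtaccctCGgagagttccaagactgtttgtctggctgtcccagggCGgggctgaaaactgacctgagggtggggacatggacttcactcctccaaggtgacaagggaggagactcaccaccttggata
Foxn4 (chr5:114273808-114273957, minus strand): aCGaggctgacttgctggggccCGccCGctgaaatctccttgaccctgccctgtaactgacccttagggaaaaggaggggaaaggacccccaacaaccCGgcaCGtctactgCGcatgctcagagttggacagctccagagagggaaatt
Foxc1 (chr13:31806483-31806632, plus strand): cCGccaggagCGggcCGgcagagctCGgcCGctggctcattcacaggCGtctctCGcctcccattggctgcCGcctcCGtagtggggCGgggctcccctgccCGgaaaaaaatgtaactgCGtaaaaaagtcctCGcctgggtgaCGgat
Foxd2 (chr4:114908874-114909023, minus strand): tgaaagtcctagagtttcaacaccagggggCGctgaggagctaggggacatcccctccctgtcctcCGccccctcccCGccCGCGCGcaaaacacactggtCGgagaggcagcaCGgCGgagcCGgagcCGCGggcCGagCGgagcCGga
The window held 1 CpG before Foxq1, 3 before Foxi2, 5 before Foxa2 and Foxd4, 6 before Foxn4, 14 before Foxc1 and 15 before Foxd2. Over all protein-coding genes the median was 6 CpG in the same 150 bases, and 87.4% of genes held at least as many as Foxq1 whereas 17.6% held at least as many as Foxd2.

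Over the wider window of 1 kb on each side of the start, the ratio of observed to expected CpG had a median of 0.768 over the 38 members and of 0.474 over all protein-coding genes. A ratio of at least 0.6 was found at 30 of 38 members, or 78.9%, and at 33.9% of all genes. Marked and unmarked members overlapped in CpG content. The 15 members with a start peak in at least 1 library had a median of 0.721, and the 23 with none had a median of 0.782. The lowest values among marked members were those of Foxq1 (0.25) and Foxi2 (0.414), and the lowest among unmarked members was that of Foxj3 (0.171).

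**Figure D1:**
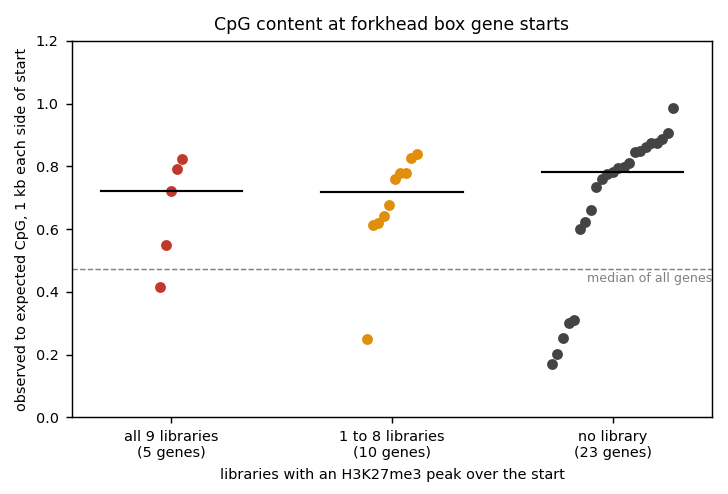
The observed to expected CpG ratio within 1 kb of the annotated start (y axis) is plotted for each forkhead box gene (point), grouped by the number of H3K27me3 libraries with a peak over the start (x axis), with the median of each group as a black line and the median of all protein-coding genes, 0.474, as a dashed line. The group marked in all 9 libraries spans 0.414 to 0.824, the group marked in some spans 0.25 to 0.839, and the unmarked group spans 0.171 to 0.985, so the 3 groups overlap.

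In H3WT cells 10 members were marked, meaning that a peak lay within 1 kb of the start in both libraries. They were the FOXA genes Foxa1, Foxa2 and Foxa3, the neural and ectodermal genes Foxb1, Foxd4, Foxi2, Foxi3 and Foxn4, the ovarian regulator Foxl2, and Foxq1, known from hair and stomach epithelium. The 10 genes were 26.3% of the members, and 8.85% of all protein-coding genes were marked in H3WT by the same rule. In H3R2C cells 5 members were marked (13.2%, beside 6.97% of all genes), in H3R8C cells 12 (31.6%, beside 9.67%) and in H3R26C cells 13 (34.2%, beside 8.45%). The single H3R17C library marked 9 members (23.7%, beside 8.83%). The share of marked members in H3R2C was thus the lowest of the genotypes, while it stayed above the share of all genes in each of them. Library by library, 11 and 13 members had a start peak in H3WT, 5 and 6 in H3R2C, 12 and 14 in H3R8C, and 15 and 13 in H3R26C, and both H3R2C libraries lay below all 7 others. These are bulk profiles, so a lower level in every cell and loss in some of the cells cannot be told apart. No source read for this work says whether replicates of a mutant came from separate transductions.

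The same order appeared in the percent of the gene body that lay under H3K27me3 peaks. Its mean over the 38 members was 25.3% ± 4.16 in H3WT, 26.8% ± 2.1 in H3R8C and 27.2% ± 2.08 in H3R26C (SD, n = 2 libraries each). In H3R2C it was 7.61% ± 3.36 (SD, n = 2), with 9.98% in replicates 1 and 2 and 5.23% in replicate 3, and in the H3R17C library it was 19.8%. Over all protein-coding genes the mean coverage was 5.91% and 6.21% in the H3WT libraries and 7.07% and 4.73% in the H3R2C libraries. Coverage of genes at large was therefore not uniformly lower in H3R2C, where 1 library lay above and the other below both H3WT libraries. The peaks of the H3R2C libraries also covered 130.4 and 77 Mb of the genome, against 103.6 and 98.6 Mb in H3WT.

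**Figure D2:**
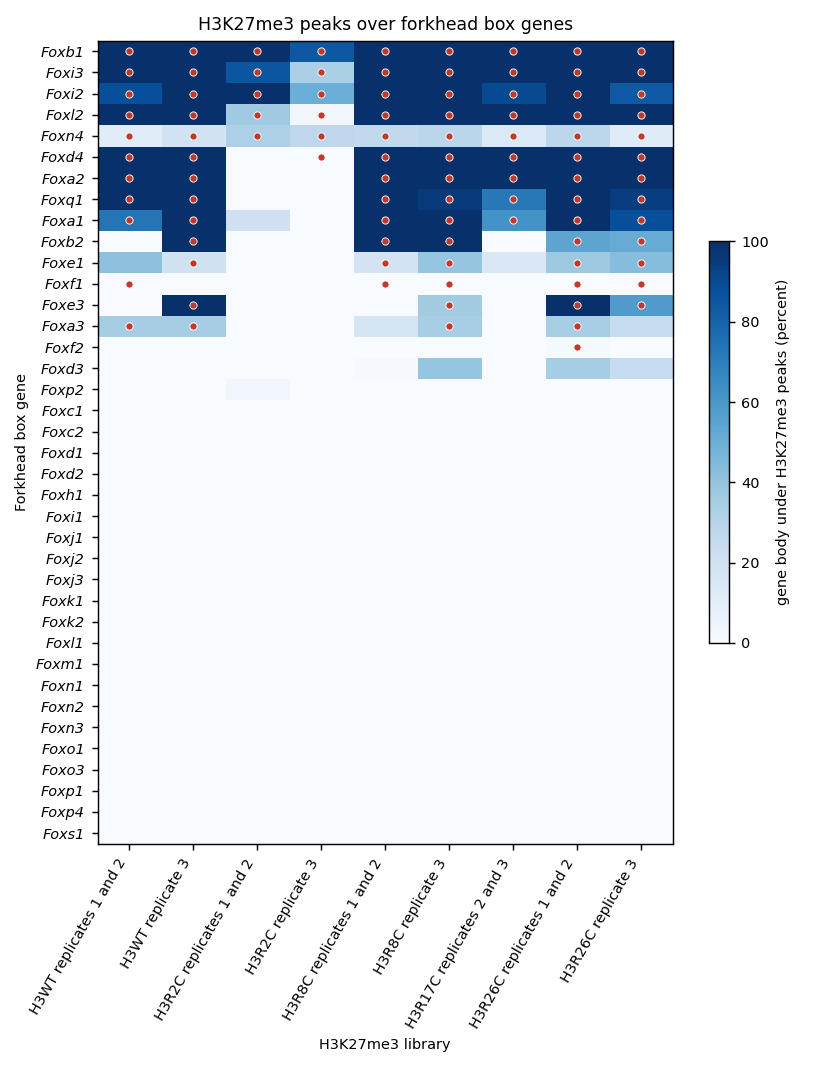
Colour gives the percent of each gene body under H3K27me3 peaks for 38 forkhead box genes (rows) in 9 libraries (columns), and a red point marks a peak within 1 kb of the start. The 5 top rows have a point in all 9 libraries, the H3R2C columns are blank at Foxa2, Foxa3 and Foxq1, and 23 rows have no point in any library.

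The 38 members fell into 3 classes by their starts. In all 9 libraries 5 were marked, namely Foxb1, Foxi2, Foxi3, Foxl2 and Foxn4, and 10 were marked in some libraries. The other 23 had no start peak in any library. For those 23 the nearest peak lay at a median over libraries between 2.3 kb (Foxd3) and 844.4 kb (Foxd1) from the start. All 12 members listed under widely expressed, cell cycle and signalling genes were in the unmarked class, though not each of them is widely expressed. They include Foxo1 and Foxo3, which act downstream of insulin signalling, Foxk1, Foxk2, Foxj2, Foxj3, Foxn2 and Foxn3, the mitotic regulator Foxm1, and Foxp1, Foxp2 and Foxp4. Of the 3 FOXA genes all 3 were marked in H3WT, of 9 members listed as mesenchymal and mesodermal 1 (Foxq1, which is also known from epithelia), of 11 neural, ectodermal and placodal members 5, and of 3 members of gonad, cilia and early embryo 1 (Foxl2). Of all protein-coding genes 8.85% were marked in H3WT, so 0 of 12 and 1 of 9 do not set those groups apart from genes at large. The shares of all genes marked in all 9 libraries or in none were not counted.

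Paralogs and neighbours differed in the mark. Foxc1 and Foxc2, close relatives that act together in vessels and skeleton, were both unmarked in all 9 libraries, with the nearest peak 69.6 to 71.7 kb from the start of Foxc1 and 32.1 to 34 kb from that of Foxc2. On chromosome 13 the start of Foxc1 lies 180.8 kb from that of Foxf2, which had a start peak in 1 library (H3R26C replicates 1 and 2), and Foxf2 lies 69.7 kb from Foxq1, which was marked in 7 of 9 libraries. On chromosome 8, Foxf1, Foxc2 and Foxl1 follow each other with 31.8 and 11.8 kb between their starts. Foxf1, a regulator of lung and gut mesenchyme, had a peak within 1 kb of its start in 5 of 9 libraries, always before the start and never in the gene body, and Foxc2 and Foxl1 had none. Of the FOXD genes, only Foxd4 carried start peaks, in 8 of 9 libraries. Foxd1, a regulator of kidney stroma, and Foxd2 had no peak over the gene in any library. Foxd3, a neural crest factor, had none within 1 kb of its start, but 35.4% and 24.6% of its gene body was under peaks in H3R26C and 0.947% and 39.7% in H3R8C. None of it was covered in H3WT, H3R2C or H3R17C, where the nearest peak lay 5.6 and 2.15 kb, 95.9 and 110.8 kb, and 303.9 kb from the start.

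For H3R2C against H3WT, 4 of the 10 members marked in H3WT had lost the start peak in both H3R2C libraries. They were Foxa1, Foxa2, Foxa3 and Foxq1. Foxd4 kept a start peak in 1 of the H3R2C libraries, and Foxb1, Foxi2, Foxi3, Foxl2 and Foxn4 kept one in both. By the same rule 26.1% of all protein-coding genes marked in H3WT were lost in H3R2C. None of the 24 members unmarked in both H3WT libraries was gained, beside 1.09% of all such genes. The count of lost members rises to 7 when H3WT is read from replicate 3 alone, which adds Foxb2, Foxe1 and Foxe3, members without a start peak in the list of H3WT replicates 1 and 2.

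Losses at Foxa1 and Foxa2, the pioneer factors of liver, lung and pancreas, lay over the start, with peaks left on both sides. In H3WT the peak over the Foxa2 start ran from 16 kb before the start to more than 20 kb after it in both libraries. In H3R2C no peak lay between 9.28 kb before and 6.82 kb after the start in replicates 1 and 2, or between 10.5 kb before and 6.87 kb after it in replicate 3, and peaks remained on both sides of these gaps. At Foxa1 the H3WT peaks over the start began 8.93 kb before it in both libraries. They ended 18.4 kb after it in replicate 3, but 2.56 kb after it in replicates 1 and 2, where the next peak began at 4.22 kb. Part of the stretch after the start thus had no peak in that H3WT library either. In H3R2C the stretch without a peak ran from 2.88 kb before to 4.97 kb after the Foxa1 start in replicates 1 and 2, and from 3.13 kb before to 6.57 kb after it in replicate 3. The edges of the gaps in the 2 H3R2C libraries thus lay within 1.6 kb of each other on either side of both genes.

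**Figure D3:**
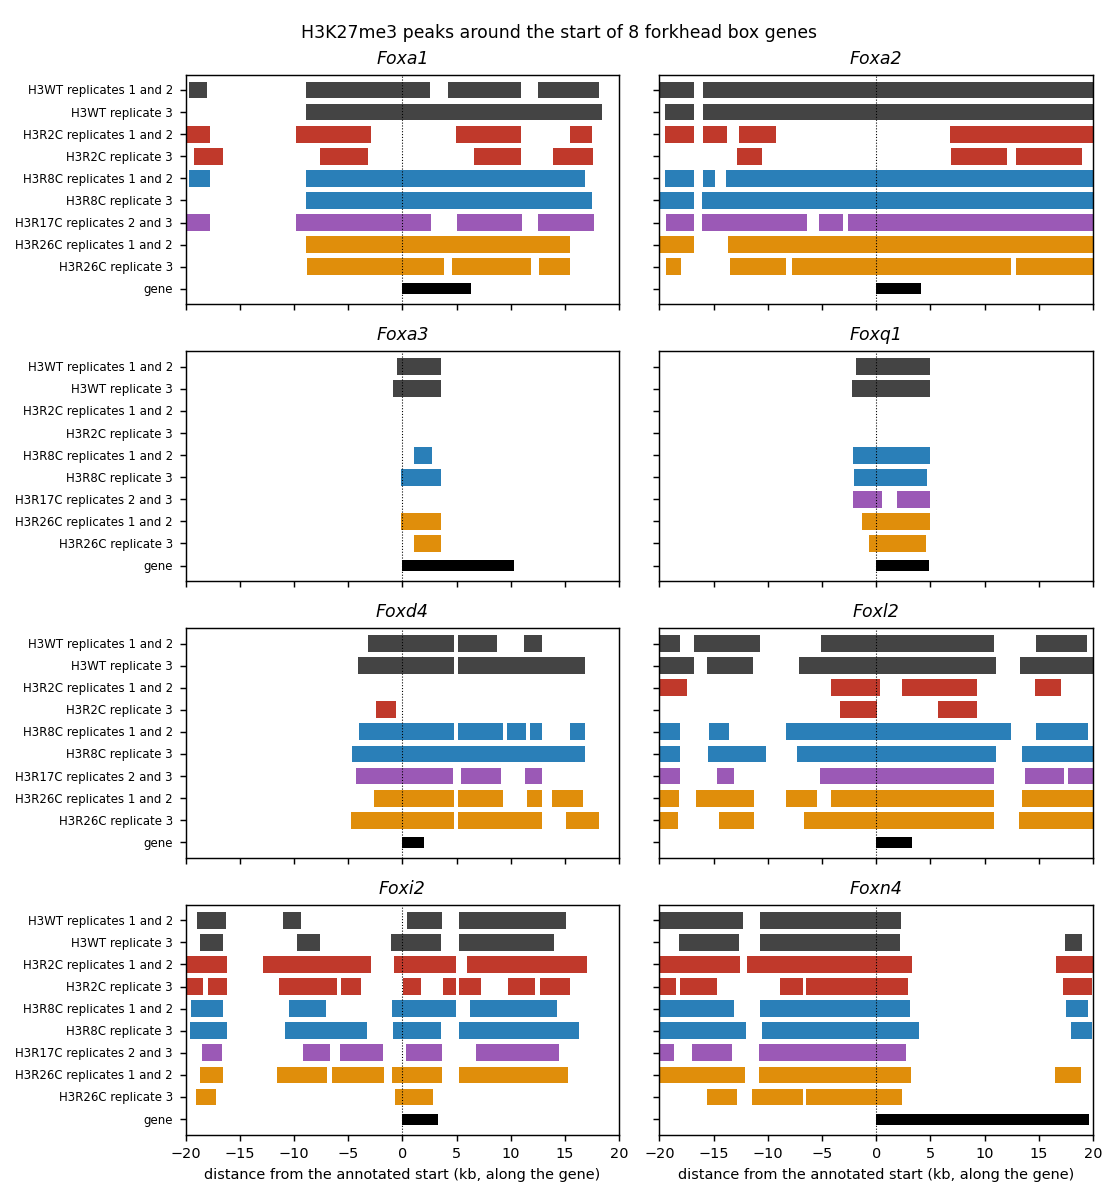
Bars show H3K27me3 peaks in each of 9 libraries (rows, coloured by genotype) along 20 kb on either side of the annotated start (x axis, distance in kb along the direction of the gene), with the gene as a black bar. In H3R2C (red) peaks are absent over the starts of Foxa1 and Foxa2 but present on both sides, no peak is present in the window at Foxa3 and Foxq1, and peaks over Foxi2 and Foxn4 are present in every library.

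At Foxl2, which maintains the identity of ovarian granulosa cells, the H3R2C peaks were cut short in the gene body. In every library of the other genotypes peaks covered 100% of Foxl2, and in H3R2C they covered 37% and 3.47%. The peak over the start ended 0.312 kb and 0.112 kb after it in the H3R2C libraries, and the next one began at 2.36 kb and 5.71 kb. Foxi3, a factor of the ear and tooth placodes, showed coverage of 85.3% and 33.4% in H3R2C and 100% in each of the other 7 libraries. Foxb1, a hypothalamic and spinal cord factor, was covered over 100% and 84.5% in H3R2C and 100% elsewhere. At Foxq1 and Foxa3 no peak remained near the gene in H3R2C: the closest lay 55.7 and 103 kb from the Foxq1 start and 47.5 and 38.6 kb from the Foxa3 start.

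To test these differences with their error, the peaks of all libraries other than H3R17C were joined into regions wherever they met. Those called in both libraries of any genotype, 20900 in number, went into the test. The signal of a region, coverage summed over the bases of its peaks, was divided by the library's median over the regions called in all 8 libraries, so that a scaled signal of 1 is the level of a typical shared region. A change common to most shared regions of a library is scaled away, so the test reads differences relative to those regions. Where no peak was called the value is 0, which means below the level of that list. The weakest peak of a list had a scaled signal of 0.125 to 0.195. A limma fit on log2(scaled signal + 0.25) over all regions, two-sided with Benjamini-Hochberg adjustment, gave the tests, and 15 of the 38 members had a region at the start. Of these 15, 8 were lower in H3R2C than in H3WT at an adjusted p under 0.05, and none was higher. Of all kept regions 12.5% were lower and 17.7% were higher in H3R2C, and of the 2909 regions at starts of protein-coding genes 23.2% were lower and 12.2% were higher. The median log2 change was -1.30 over the 15 members and -0.12 over all start regions. A region could pass only if 1 genotype called it in both libraries, so these 15 members are not a neutral sample of the family. Of the 8 members whose region held a peak in all 8 libraries 5 were lower, beside 23% of all such start regions.

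Foxa2 had the highest scaled signal of the members in H3WT, 11.7 in replicates 1 and 2 and 10.2 in replicate 3. In H3R2C it was 2.43 and 2.3, in H3R8C 11.5 and 10, and in H3R26C 8.65 and 12. Both H3R2C libraries lay far below the other 6, which overlapped among themselves, and the log2 change against H3WT was -2.10 ± 0.18 (SE, limma adjusted p = 0.000364).

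Foxa1 had a scaled signal of 5.26 and 4.97 in H3WT and of 1.7 and 1.9 in H3R2C. The values were 5.98 and 5.03 in H3R8C and 5.13 and 7.74 in H3R26C, so H3R2C again stood below all other libraries. The log2 change was -1.39 ± 0.20 (SE, limma adjusted p = 0.00371). Foxa3, the third FOXA gene, was much weaker, with 0.433 and 0.522 in H3WT and no peak in H3R2C. It had 0.188 and 0.49 in H3R8C and 0.394 and 0.509 in H3R26C, and its region also covers the start of Sympk, so the signal cannot be assigned to one gene. Its limma adjusted p was 0.0154, and without 1 library it rose to 0.0555 (H3WT replicates 1 and 2), 0.0656 (H3WT replicate 3), 0.0758 (H3R2C replicates 1 and 2) and 0.0767 (H3R2C replicate 3), so this call rests on all 4 libraries.

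Foxq1 gave 0.743 and 0.963 in H3WT, 0.984 and 1.08 in H3R8C and 1.16 and 1.27 in H3R26C. It had no peak in H3R2C (limma adjusted p = 0.000274). All 6 libraries of the other genotypes were several times above the weakest peaks of the H3R2C lists, 0.153 and 0.177. The fitted log2 change of -2.13 depends on the constant of 0.25 and is no bound. Both H3R2C values are 0, so they add no spread to the fit, and the p-value does not measure how H3R2C libraries vary there. The same holds for Foxa3, Foxb2, Foxe1 and Foxe3. The region also holds the start of A530084C06Rik. Regions of chromosome 13 as a whole had a median log2 change of -0.29 in H3R2C, against a median near 0 over all regions, and with chromosome medians set to 0 Foxq1 was still called.

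Foxd4, an early neurectoderm factor, gave 3.68 and 4.33 in H3WT, 4.36 and 4.24 in H3R8C and 3.74 and 6.45 in H3R26C. In H3R2C it had no peak in replicates 1 and 2 and 0.217 in replicate 3, where a peak of 1.85 kb lay before the start, outside the gene. The call had a limma adjusted p of 0.000588, and the fitted log2 change of -3.63 ± 0.35 (SE) depends on the constant. With the highest coverage of a region in place of its summed signal, the adjusted p was 0.0553.

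Foxl2 fell by 1.55 ± 0.17 on the log2 scale (SE, limma adjusted p = 0.000977), from 5.31 and 5.66 in H3WT to 1.67 and 1.75 in H3R2C. It had 7.02 and 5.75 in H3R8C and 6.04 and 8.01 in H3R26C, all above H3R2C. Foxb1 had 7.11 and 5.89 in H3WT and 2.61 and 2.37 in H3R2C, with a log2 change of -1.30 ± 0.22 (SE, limma adjusted p = 0.00716). The adjusted p of Foxb1 was 0.053 without H3WT replicates 1 and 2, 0.0557 without H3R2C replicates 1 and 2 and 0.0717 without H3R2C replicate 3. Foxi3 showed the smallest called difference, from 4.68 and 3.94 in H3WT to 2.34 and 3 in H3R2C, a log2 change of -0.65 ± 0.16 (SE, limma adjusted p = 0.026). The Foxi3 call was lost without H3WT replicates 1 and 2 (0.126), H3R2C replicates 1 and 2 (0.115), H3R8C replicates 1 and 2 (0.0513) or H3R8C replicate 3 (0.0522). Foxa1, Foxa2, Foxd4, Foxl2 and Foxq1 were called with any 1 of the 8 libraries left out.

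Not every marked member was lower in H3R2C. Foxn4, a factor of retinal and spinal interneuron progenitors, gave 3.17 and 3.24 in H3WT and 3.05 and 3.52 in H3R2C, with a log2 change of 0.03 ± 0.17 (SE, limma adjusted p = 0.998). Foxi2 gave 0.44 and 0.584 in H3WT and 0.63 and 0.472 in H3R2C, a log2 change of 0.07 ± 0.20 (SE, limma adjusted p = 0.887). For both genes the H3WT and H3R2C libraries overlapped. At Foxf1 the region of 32.4 kb lay entirely before the start and gave 3.17 and 3.98 in H3WT and 4.57 and 6.54 in H3R2C (log2 change 0.59 ± 0.19 SE, limma adjusted p = 0.0645). H3R2C was the higher genotype there in both libraries, while its peaks ended 1.64 kb before the start. Without H3R2C replicates 1 and 2, or with the replicate number as a block, Foxf1 was called higher. Foxb2 had 0.148 and 0.931 in H3WT and no peak in H3R2C (limma adjusted p = 0.0686). Foxe1, Foxe3 and Foxf2 were at or below 0.238 in every H3WT and H3R2C library, near the level of the weakest peaks.

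**Figure D4:**
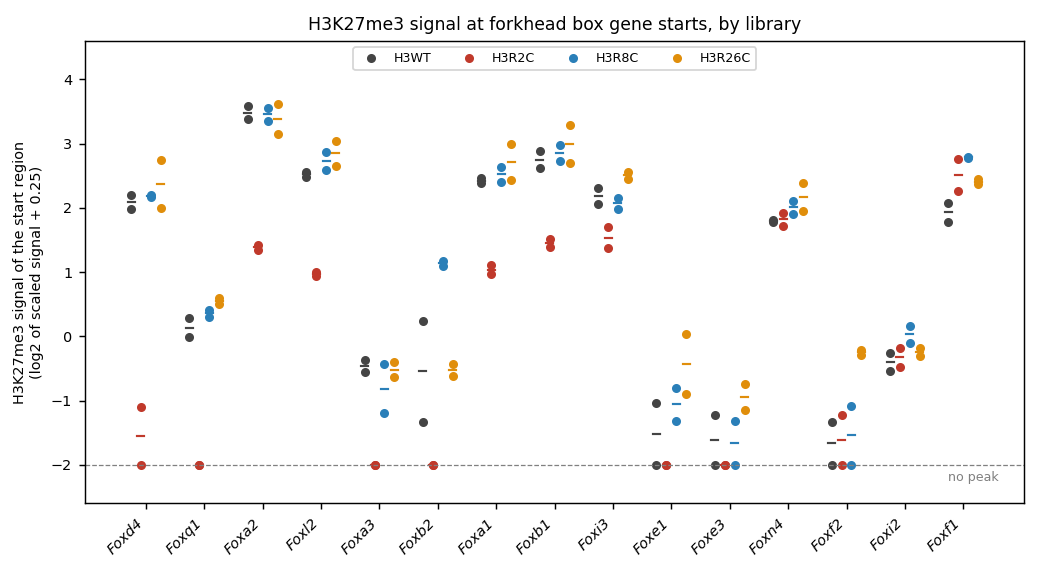
Each point is the H3K27me3 signal of the region at the start of 1 of 15 forkhead box genes (x axis) in 1 library, as log2 of the scaled signal plus 0.25 (y axis), with short lines for the mean of the 2 libraries of a genotype and a dashed line at the value of a region without a peak. The H3R2C points (red) lie below all others at Foxa2, Foxl2, Foxa1, Foxb1, Foxd4 and Foxq1, and among the others at Foxi2 and Foxn4.

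The start peaks of Foxa1, Foxa2 and Foxq1 were present in both libraries of H3R26C and of H3R8C. No member was lost in either genotype, beside 9.37% of all genes marked in H3WT for H3R26C and 4.22% for H3R8C. With 10 members marked in H3WT, 0 lost does not set them apart from genes at large. Of these 10, Foxa3 alone had a start peak in only 1 of 2 libraries in each genotype. No member was gained, beside 0.921% and 0.823% of genes. These counts lean on single libraries: Foxb2, Foxe1 and Foxe3 count as gained in H3R26C, and Foxb2 and Foxe1 in H3R8C, when H3WT replicate 3 is left out, and Foxf1 in both when H3WT replicates 1 and 2 are left out. Foxf2 counts as gained in H3R26C without its replicate 3. If H3R8C is read from replicates 1 and 2 alone, or H3R26C from replicate 3 alone, Foxa3 counts as lost there. In the limma fit 0 of 15 members were lower and 0 were higher in H3R26C, where 9.93% of start regions were lower and 8.87% were higher, and 2 members were higher at an unadjusted p under 0.05. For H3R8C the counts were also 0 and 0, beside 1.72% lower and 2.96% higher, with 2 members higher at an unadjusted p under 0.05. The lowest adjusted p was 0.0862 for H3R26C (Foxf2, log2 change 1.42 ± 0.45 SE) and 0.0627 for H3R8C (Foxf1, 0.86 ± 0.19 SE), from limma. In H3R8C, Foxf1 was called higher without either H3R2C library and Foxb2 without H3WT replicate 3, 1 member in each case. The median log2 change of the 15 members was 0.32 in H3R26C and 0.12 in H3R8C, with 0.08 and 0.07 over all start regions. At the members called in H3R2C the SE of the H3R26C and H3R8C changes was 0.16 to 0.35 on the log2 scale. Differences well above 1 SE also went uncalled, such as those of Foxf2 and Foxf1 above. Another was that of Foxb2 in H3R8C (1.68 ± 0.48 SE, limma adjusted p = 0.129). With 2 libraries per genotype, 0 of 15 called therefore does not show that the members were unchanged, and it does not set them apart from all start regions.

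**Figure D5:**
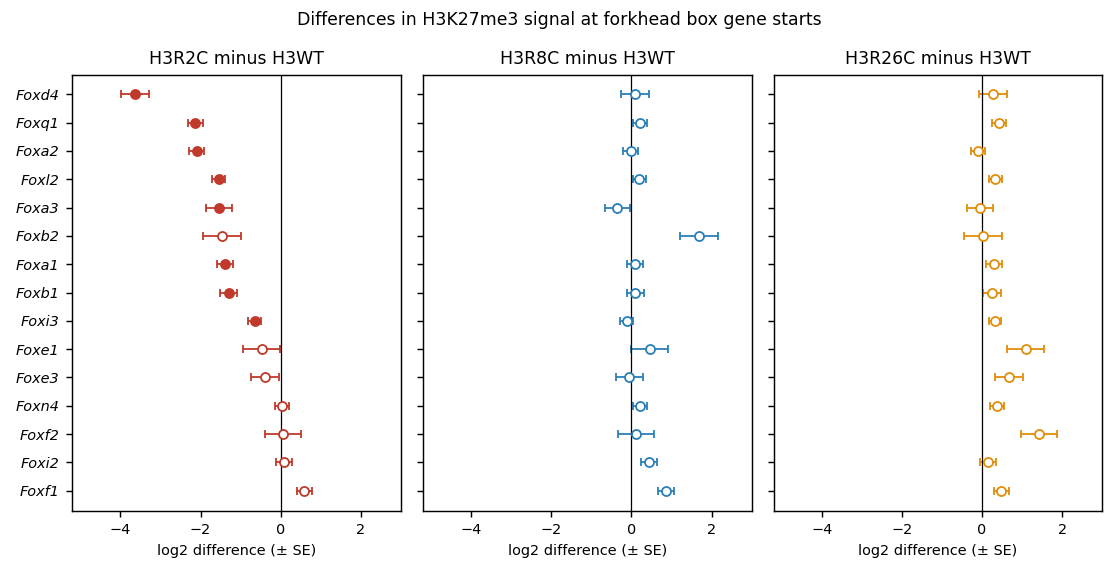
Points give the log2 difference in H3K27me3 signal from H3WT, with the SE as bars (x axis), at the starts of 15 forkhead box genes (y axis) for H3R2C, H3R8C and H3R26C, and filled points have a limma adjusted p under 0.05. For H3R2C 8 points are filled, all below 0, and none for H3R8C or H3R26C.

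The direct test of H3R2C against H3R26C called 10 of 15 members lower and none higher, beside 32.3% and 19.7% of start regions. They were the 8 members lower against H3WT and, in addition, Foxe1 and Foxe3. The log2 differences ran from -0.97 ± 0.16 for Foxi3 (SE, limma adjusted p = 0.00427) to -3.92 ± 0.35 for Foxd4 (SE, limma adjusted p = 0.00033). Foxe1, a thyroid and palate factor, had 0.285 and 0.779 in H3R26C, Foxe3, a lens factor, had 0.201 and 0.348, and neither had a peak in H3R2C. The region of Foxe1 was kept through H3R8C and H3R26C and that of Foxe3 through H3R26C alone, so a difference in this direction was favoured by the filter. Both calls were lost without H3R2C replicates 1 and 2, where the adjusted p was 0.161 for Foxe1 and 0.189 for Foxe3, and without H3R2C replicate 3, where it was 0.169 and 0.202. Without H3R26C replicate 3 it was 0.153 and 0.212. Leaving out either H3R8C library gave 0.0733 and 0.0712 for Foxe1 and 0.0643 and 0.0605 for Foxe3, and leaving out H3R26C replicates 1 and 2 gave 0.0966 for Foxe3. The Foxa3 call was lost without H3R2C replicates 1 and 2 (0.0655), H3R2C replicate 3 (0.0693) or H3R26C replicate 3 (0.0605). With H3R2C and H3R26C pooled against H3WT and H3R8C, no member was called lower or higher, beside 0.378% and 0.275% of start regions, and 2 members were lower at an unadjusted p under 0.05.

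The H3R17C library lost 1 of the 10 members marked in H3WT, Foxa3, beside 16.2% of all genes, and gained none, beside 0.6%. The count of lost members was 4 with H3WT replicate 3 alone (Foxb2, Foxe1 and Foxe3 in addition) and 2 with H3WT replicates 1 and 2 alone (Foxf1 in addition). Its scaled signal was 8.33 at Foxa2, 5.78 at Foxa1, 4.46 at Foxl2 and 0.628 at Foxq1. In the same fit of 9 libraries the H3WT values were 11.2 and 9.84, 5.07 and 4.77, 5.11 and 5.44, and 0.715 and 0.925. H3R17C thus lay above both H3WT libraries at Foxa1 and below both at the other 3 genes. No member was called lower or higher by limma, beside 1.1% and 0.275% of start regions, with 1 member lower at an unadjusted p under 0.05. With 1 H3R17C library, this fit assumes that it varies like the other genotypes.

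The anti-HA lists show where tagged histone was called. By library, 5.26% to 15.8% of the members had an HA peak over the start, beside 7.95% to 21.1% of all protein-coding genes. Only in H3R26C replicates 1 and 2 was the share of members above that of all genes (13.2% beside 11.6%). The 3 members named next had HA start peaks in the most libraries. Foxj1, the regulator of motile cilia, had an HA peak over its start in 9 of 10 independent HA libraries, Foxh1, a Nodal effector, in 8 and Foxn1, the thymic epithelial factor, in 6. None of the 3 had an H3K27me3 peak over the start in any library. They are among the 23 of 38 members without one, so its absence does not set them apart from the family. Whether HA and H3K27me3 start peaks exclude each other was not tested. At Foxj1 the HA peaks covered 100% of the gene in both H3WT libraries and 18% to 75.5% in the other libraries with a start peak. Over all protein-coding genes the mean HA cover of the gene body was also higher in both H3WT libraries. It was 15.8% and 11.7% there and 2.73% to 7.33% in the other HA libraries. The Foxj1 values therefore do not show more tagged histone at this gene in H3WT. HA peaks overlapped 1 to 3 of the 15 member regions of H3K27me3 in each HA library, beside 11.6% to 21.9% of all 20900 regions. In H3R2C it was 3 of 15 in both libraries, and in H3WT 2 of 15 in both. The list of H3WT replicates 1 and 2 differed from the other HA lists, with 15344 peaks of a median width of 10.7 kb where the others held 37907 to 52083 peaks of 0.8 to 2.65 kb.

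The other pathway lists were read in the same way. Of 15 Hedgehog pathway genes, which include signals upstream of several mesenchymal forkhead genes, 3 were marked in H3WT (the ligands Shh and Ihh and the receptor Ptch1), 2 in H3R2C, 3 in H3R8C and 4 in H3R26C. The shares of all protein-coding genes were 8.85%, 6.97%, 9.67% and 8.45% in the same order. Of the 15 genes 4 had a start region in the limma fit. None of these 4 was lower in H3R2C than in H3WT, beside 23.2% of all start regions, and Shh, Ptch1 and Hhip were higher in H3R26C, beside 8.87%. The region of Hhip was kept through H3R26C alone, where it had 0.164 and 0.302, and no other genotype had a peak there, so this call was favoured by the filter. Ptch1 had no peak in H3R2C, and gave 0.174 and 0.181 in H3WT beside 0.735 and 0.885 in H3R26C. Its log2 change was 1.31 ± 0.23 (SE, limma adjusted p = 0.0152) in H3R26C and -0.77 ± 0.23 (SE, limma adjusted p = 0.0517) in H3R2C. None of 11 insulin and PI3 kinase pathway genes, which act upstream of FOXO proteins, had a start peak in any library, as was the case for Foxo1 and Foxo3. With 8.85% of all genes marked in H3WT, none of 11 does not set this list apart from genes at large. Of the 3 endothelial markers Kdr was marked in H3R8C and H3R26C, and of the 3 haematopoietic markers Cd3e was marked in H3WT.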

How the data were processed

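CUT&RUN libraries of C3H 10T1/2 cells were analysed from the 30 deposited anti-H3K27me3 and anti-HA peak lists, 29 of them used in comparisons. The IgG and H3K4me3 libraries were not used here. The authors' methods give alignment to mm10 by Rsubread, and SEACR 1.3 (stringent, norm, 0.01) as the peak caller, run on each labelled sample. The deposited signal values are whole numbers, coverage summed over each peak and its maximum, not scaled to a common depth by the authors. SEACR keeps a top share of blocks, so absence of a peak means a level below that of the list. Identical lists were counted once.

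Members and gene lists were chosen with earlier results of these data known. All 38 matched the GENCODE basic annotation. A member was marked when at least 1 bp of a peak lay within 1 kb of its start. Peaks of 8 libraries were joined into 36272 regions, and the 20900 that both libraries of some genotype had called were tested. Signal was scaled by the median over the 5589 regions called in all 8, and log2(scaled signal + 0.25) was fitted with limma 3.58.1 (R 4.3.3), with a trend, Benjamini-Hochberg adjustment over all regions and a threshold of 0.05. The fit was run on simulated data with normal noise around the mean of each region. The simulation held no values fixed at the level of no peak, so it does not test regions where a genotype had no peak. Members described library by library were those called against H3WT or between H3R2C and H3R26C, or lost or gained. Figures used matplotlib 3.10.9. Alternatives covered scaling, pseudocount, filters, windows, peak ranks, a replicate block and leaving out each library.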

Additional observations from a re-analysis of the deposited data

Results flagged for a closer look

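In the direct limma test of start regions 10 members differed between H3R2C and H3R26C, all lower in H3R2C. The log2 differences were -1.68 for Foxa1, -2.00 for Foxa2, -1.48 for Foxa3, -1.54 for Foxb1, -3.92 for Foxd4, -1.57 for Foxe1, -1.05 for Foxe3, -0.97 for Foxi3, -1.88 for Foxl2 and -2.55 for Foxq1. The region of Foxe3 was kept through H3R26C alone and that of Foxe1 through H3R8C and H3R26C, so these differences were favoured by the filter. The calls of Foxa3, Foxe1 and Foxe3 were each lost without single libraries of H3R2C or H3R26C. No group had enough libraries to test single libraries as outliers.

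The list labelled H3R17C anti-H3K27me3 replicate 1, left out of all comparisons because its name gives another mark, had a peak within 1 kb of the start of 13 members, or 34.2%, beside 38.6% of all protein-coding genes. They were Foxc1, Foxc2, Foxd1, Foxd2, Foxj2, Foxk2, Foxm1, Foxn2, Foxn3, Foxo3, Foxp1, Foxp4 and Foxs1. All 13 belonged to the 23 members without an H3K27me3 start peak in the 9 libraries used, and none to the 15 with one. The same split was not counted over all protein-coding genes, so it is not read as particular to the family. Which mark this list holds was not tested.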

How the results depend on the processing

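For H3R2C against H3WT the same 8 members were lower and none was higher with a pseudocount of 1, total-signal scaling, no filter, no trend, chromosome medians set to 0 and peaks merged within 1 kb. With a pseudocount of 0.05 Foxb2 joined them, and with maximum signal Foxb2 took the place of Foxd4. Lower members numbered 4 with unscaled signal (Foxa2, Foxd4, Foxl2 and Foxq1), 4 at an adjusted p under 0.001, 6 of 14 with one value per gene, and 5 of the 8 left when regions had to be called in every library. Against H3R26C the counts were 2 (Foxd4 and Foxq1), 4, 6 and 5 in the same order. Foxf1 was the 1 member higher in H3R2C with regions called in every library and with the replicate block, and the 1 higher in H3R8C with regions called in every library and with chromosome medians set to 0. Foxf2 was the 1 higher in H3R26C with a pseudocount of 1. In H3R17C 2 members, Foxa2 and Foxa3, were lower by maximum signal. With 50% of the window covered, 3 members were marked in H3R2C. Counting all 3 labelled replicates, so that identical lists count as 2, gave 4 members gained in H3R26C, 2 gained and 1 lost in H3R8C, and 2 lost in H3R17C.

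The percent of gene body covered moved by less than the spread between libraries with 5 kb added before the start and with the upper 50% of peaks. Leaving out each library in turn, members lower in H3R2C numbered 5 to 8 against H3WT and 7 to 11 against H3R26C, and higher members 0 to 1 in H3R2C and 0 to 1 in H3R8C. Members lost ranged from 4 to 7 in H3R2C, 0 to 1 in H3R26C and in H3R8C, and 2 to 4 in H3R17C, and members gained from 0 to 3 in H3R26C and 0 to 2 in H3R8C. The differences of the 8 members called against H3WT and the 10 called against H3R26C did not change sign under the alternatives run, and the signs of other members' differences were not followed.

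The replicate block left 8 members lower in H3R2C against H3WT and 10 against H3R26C. Differences between libraries of the same number correlated at -0.0126 to 0.213 over 5589 regions, so the numbers were not taken as pairs, and changes lost or won under the block are not read further. The peak lists hold no read depth, and the signal of Foxa3, Foxe1, Foxe3 and Foxf2 lay near the level of the weakest peaks. The cause of the changes with the setting was not tested.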
